A study of Mus musculus with 48 samples.

Results

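Mature migratory dendritic cells were taken from the counts as cells with at least 2 UMIs of Fscn1, at least 1 UMI of Ccr7 and 0 UMIs of Cd3e, Cd3d, Cd3g and Sox2, among cells in which 500 or more genes were detected. A UMI, or unique molecular identifier, stands for a captured RNA molecule of a gene in a cell. Of 14261 cells in both experiments 275 met this rule, 221 of 8726 in the whole-tumor mix and 54 of 5535 among CD11b+ cells. The cells were thus chosen by the counts of Fscn1 and Ccr7, whose levels are a description and carry no test. The host animals were 6-week-old male C57BL/6 mice, and the implant, placed in the striatum, was GL261, a mouse glioma line in which the implanted cells and not the host carried a hairpin against Selp (shSELP) or a negative-control hairpin (shNC). Brains were pooled within a group, and the labels give day 16 for the mix and day 21 for the CD11b+ cells, both of which differ from the day in the study's methods. The mix combined 3 fractions in equal amounts, the CD11b+ cells, the CD45+ cells without CD11b and whatever remained, so any share of cells describes that mixture. It was sequenced as 2 libraries per group (shNC 1, shNC 2, shSELP 1 and shSELP 2), and the CD11b+ cells as 1 library per group (shNC 1 and shSELP 2). The labels do not tell if the 2 libraries of a group stem from different mice, so p-values measure only the spread between libraries.

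Dendritic cells take up antigen in a tissue, and on maturation they stop sampling, load peptides onto MHC molecules and leave for the lymph node, where they prime T cells. Ccr7, the receptor for the chemokines Ccl19 and Ccl21, guides this migration, while Fscn1 encodes fascin, which bundles actin filaments in the long processes of mature dendritic cells. In tumors such cells are known for carrying T cell-stimulating and T cell-inhibiting molecules side by side, and conventional dendritic cells of both lineages, cDC1 (Xcr1, Clec9a) and cDC2 (Cd209a), can mature into them.

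In the order shNC 1, shNC 2, shSELP 1 and shSELP 2, which is kept for every run of 4 values, the libraries of the mix held 22945972, 22626413, 17398121 and 25589350 UMIs. The 33, 68, 44 and 76 mature dendritic cells held 209785, 426619, 309438 and 675458 of these. Their median depth was 5594, 5578, 5940 and 7462 UMIs per cell, below the 9651, 8234, 6169 and 10033 UMIs of all other cells in each library. A median of 1715, 1774, 1793 and 2217 genes was detected per cell. The CD11b+ libraries held 12628177 (shNC 1) and 11445676 UMIs (shSELP 2), and their 31 and 23 mature dendritic cells had medians of 1819 and 1677 UMIs. Between libraries 10 cells of the mix and 6 CD11b+ cells shared a barcode, and 0 of these were mature dendritic cells. Scrublet, a doublet caller, marked 76 of the 8726 cells of the mix (0.871%), of which 0, 1, 0 and 1 were mature dendritic cells, and marked cells were kept. Among the CD11b+ cells it marked 1 of 5535, too few for the caller to have worked there.

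Most mature dendritic cells lay well above the thresholds of the rule. In the mix 10 of the 221 had exactly 2 UMIs of Fscn1 and 13 had exactly 1 UMI of Ccr7, while 33 cells had Ccr7 but only 1 UMI of Fscn1 and 239 had the Fscn1 UMIs without Ccr7. Cacnb3, a calcium channel subunit that the rule did not use, was detected in 83.3% of the mature dendritic cells, in 30% and 30.8% of those just inside the Fscn1 and Ccr7 thresholds, and in 18.2% and 6.28% of those just outside. The chemokine gene Ccl22 gave 76.5% in all 221, 20% and 38.5% just inside, and 36.4% and 6.28% just outside. Flt3, the receptor for the growth factor that maintains dendritic cells, gave 54.3%, then 10% and 38.5%, then 21.2% and 1.26%. Cells next to the thresholds carried these genes less often than the 221 as a whole and were deeper, with medians of 11819 and 10382 UMIs inside and 9295 and 9961 outside. The conditions on Cd3 genes and Sox2 removed 22 and 2 cells of 245, and 1 further cell passed but had under 500 genes.

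Selp, the gene that the hairpin targets (P-selectin, chromosome 1, 164115264 to 164150026, plus strand, of mm10), had 0 UMIs in the mature dendritic cells of all 6 libraries. Over the 1621300 UMIs of these cells in the mix, 0 UMIs allows a level of up to 1.85 CPM, counting 3 UMIs as the limit, where CPM are UMIs of a gene over all UMIs of the summed cells, scaled to 1e6. All other cells of the mix had 0.750, 1.13, 1.23 and 0.846 CPM of Selp, and 0.529% of them had a UMI. In other CD11b+ cells the levels were 0.321 CPM in shNC 1 and 0.352 CPM in shSELP 2. The groups overlapped, and the level in the tumor cells themselves was not analysed here. Selplg, which encodes the P-selectin ligand PSGL-1, stood at 686, 684, 789 and 739 CPM, with both shSELP libraries slightly above both shNC libraries (log2 fold change 0.12, unadjusted p = 0.554 from edgeR, not called). A UMI of Selplg was found in 96.8% of the mature dendritic cells, against 84.9% of T cells, taken as cells with at least 2 Cd3 UMIs and 0 of Fscn1 and Sox2, at median depths of 6102 and 6065 UMIs. Of the other genes of the selectin axis, Sele (E-selectin) had 0 UMIs, and Cd44, a hyaluronan receptor that can also bind P-selectin, had 81.0, 91.4, 61.4 and 54.8 CPM. The 13 genes of the axis that were analysed summed to 958, 1027, 1105 and 1019 CPM, of which Selplg was the most abundant. They had a median log2 fold change of -0.10 between the groups over 6 tested genes, beside 0.01 over all genes tested.

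The 4 markers of the label were above all other cells in every library. Fscn1 (chromosome 5, 142960343 to 142973185, plus strand) had 2712, 2996, 2631 and 3204 CPM, and Ccr7 (chromosome 11, 99144196 to 99155077, minus strand) had 4285, 4050.4, 3755 and 3777 CPM, where all other cells averaged 36.3 and 89.3 CPM. Ccl22, a ligand of Ccr4 that draws regulatory T cells (chromosome 8, 94745590 to 94751699, plus strand), had 1435, 893, 827 and 579 CPM, against a mean of 14.0 CPM in other cells. It was highest in shNC 1 and lowest in shSELP 2, and both shNC libraries lay above both shSELP libraries. Zbtb46, a transcription factor of conventional dendritic cells (chromosome 2, 181387762 to 181459426, minus strand), was low at 57.2, 68.0, 51.7 and 85.9 CPM, but other cells averaged 4.24 CPM. A UMI of Zbtb46 was seen in 35.3% of the mature dendritic cells (15.1% after thinning to 2000 UMIs), against 4.78% of T cells (1.63% thinned), which should lack the gene. The corresponding shares were 76.5% against 0.730% for Ccl22, 83.3% against 0.899% for Cacnb3, 68.8% against 1.24% for Il4i1 and 54.3% against 0.506% for Flt3. With 219 mature dendritic cells and 1715 T cells left at 2000 UMIs, the thinned shares of Ccl22 were 57.1% and 0.233%. Of genes that T cells express too, Tnfrsf4 (53.8% against 60.1%), Tnfrsf9 (43.9% against 72.8%) and Ccl5 (92.3% against 66.3%) were frequent in both cell types.

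Ranked by the lowest ratio to all other cells over the 4 libraries, the leading genes were Cacnb3, Nudt17, Bcl2l14, Fscn1, Gm13546, Il4i1, Ccr7, Gypc, Ramp3 and Ccl22, followed by Tbc1d4, Serpinb6b, Socs2, Glipr2, Tmem39a, Cd1d1, Poglut1, Ly75, Pkib and Rogdi. The ratios describe cells picked for Fscn1 and Ccr7 and were not tested. Cacnb3 (chromosome 15, 98630840 to 98644529, plus strand) had 462, 488, 443 and 653 CPM, 127 to 228 times the level of the other cells of the library. Il4i1, a secreted enzyme that oxidizes amino acids and dampens T cells, had 567, 842, 359 and 447 CPM, a ratio of 56.0 to 141. Ramp3, which pairs with calcitonin-type receptors, had 1025, 999, 1044 and 1020.0 CPM, a ratio of 28.4 to 42.1. Ramp3 and Ly75, the endocytic receptor DEC-205, differed little between libraries, Ly75 with 162, 169, 171 and 172 CPM, whereas Il4i1 ranged from 359 to 842 CPM. Socs2, an inhibitor of cytokine signaling, had 829, 1048, 669 and 857 CPM, and Tbc1d4, a Rab GTPase-activating protein, 1597, 1444, 801 and 1249.5 CPM. Of the 20 genes listed as markers of mature dendritic cells, which include Fscn1 and Ccr7 of the rule, 19 exceeded the other cells in every library. Together they made up 30426, 28210.2, 27779 and 29901 CPM against 3649, 3439.6, 5063 and 5374 CPM, of which the genes of the rule gave 6998, 7046, 6386 and 6980.4 CPM in mature dendritic cells. Ccl5, a T cell-attracting chemokine and the most abundant of them, had 8761, 8229.8, 10196 and 10883 CPM.

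**Figure D1:**
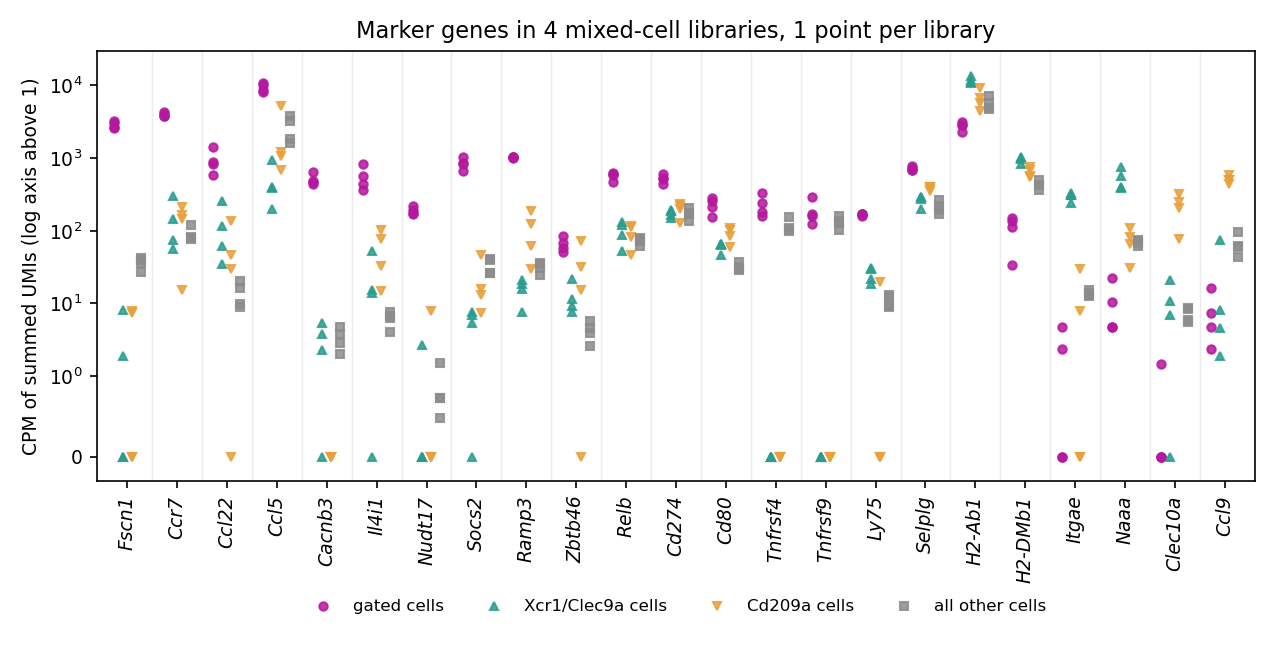
CPM of 23 genes in mature dendritic cells, Xcr1/Clec9a-gated cells, Cd209a-gated cells and all other cells of the mix, with 1 point per library on an axis that is linear near 0 and logarithmic above. Fscn1 lay between 2631 and 3204 CPM in the mature dendritic cells, and Cacnb3 at 443 to 653 CPM against 0 in each library of the Cd209a-gated cells.

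Mature dendritic cells made up 1.51% (exact 95% binomial interval 1.04% to 2.12%) of cells in shNC 1, 3.12% (2.43% to 3.94%) in shNC 2, 2.01% (1.46% to 2.69%) in shSELP 1 and 3.50% (2.76% to 4.36%) in shSELP 2. The libraries of a group differed more than the groups did, since shNC 2 and shSELP 2 were high and shNC 1 and shSELP 1 low in turn, and the groups overlapped. The mean was 2.32% ± 1.14 (SD) for shNC and 2.75% ± 1.05 for shSELP, a difference of 0.436 percentage points (exact permutation test, two-sided, p = 0.667, where 2 libraries against 2 cannot go below 0.333). Without shNC 1 the difference was -0.368 points and without shSELP 2 it was -0.307, so its direction rested on these libraries, while without shNC 2 and shSELP 1 it was 1.24 and 1.18. When cells were thinned to 2000 UMIs and the rule was applied again, 30, 60, 34 and 65 cells met it and the shares were 1.48%, 2.99%, 1.74% and 3.29%. Among CD11b+ cells the rule found 1.14% (0.773% to 1.61%) in shNC 1 and 0.820% (0.521% to 1.23%) in shSELP 2, intervals that overlapped and cover counting error only. There, 20 of the 31 and 16 of the 23 cells had under 2000 UMIs, and after thinning 9 and 7 cells met the rule, 0.385% and 0.290%.

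**Figure D2:**
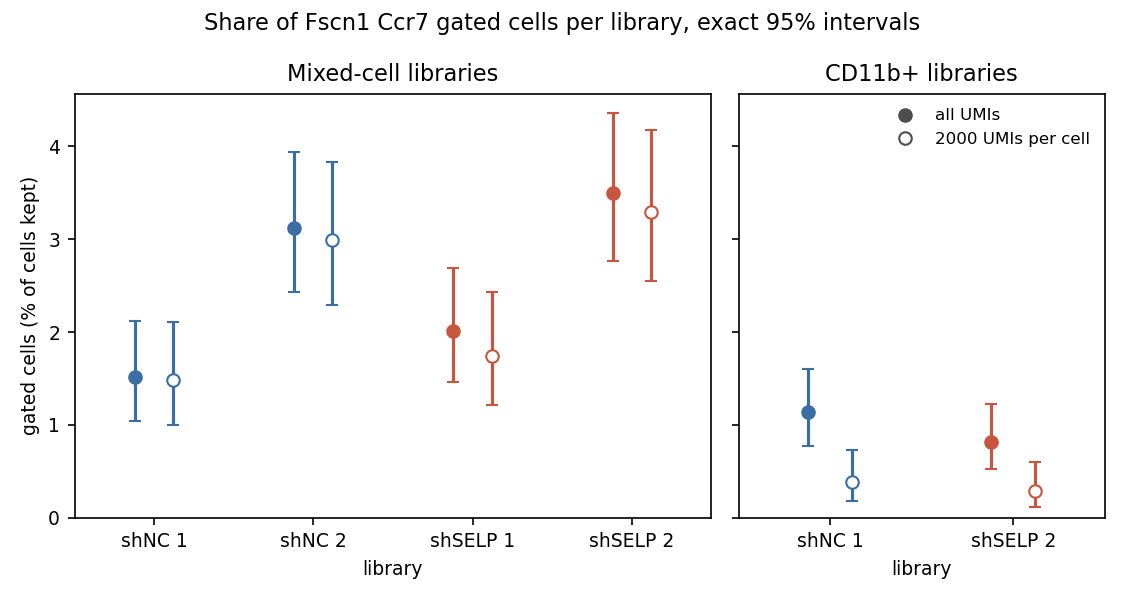
Percent of cells that were mature dendritic cells in each library of the mix and of the CD11b+ cells, with exact 95% binomial intervals, from all UMIs (filled) and after thinning to 2000 UMIs (open). In the mix the shares were 1.51% and 3.12% for shNC and 2.01% and 3.50% for shSELP.

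To set the mature dendritic cells against dendritic cells outside the rule, gates were drawn on Xcr1 and Clec9a together (at least 2 UMIs, 0 of Cd209a) and on Cd209a (at least 2 UMIs, 0 of Xcr1 and Clec9a), again with 0 UMIs of the Cd3 genes and Sox2 and without cells already counted as mature. They held 31, 27, 17 and 28 Xcr1/Clec9a-gated cells, with median depths of 13904, 13209, 12354 and 16747 UMIs, and 9, 17, 16 and 15 Cd209a-gated cells, with 5560, 7240, 7465 and 9189 UMIs. Counts were summed per library and gate and compared with edgeR's quasi-likelihood test with library as a block, and the genes of the gates were left out of the calls. Both comparisons use the sums of the same mature dendritic cells and are given side by side. Against Xcr1/Clec9a-gated cells 1686 of 3731 genes were called at an adjusted p of 0.05 (45.2%), 858 higher (23%) and 828 lower (22.2%) in mature dendritic cells. Against Cd209a-gated cells 1351 of 3731 were called (36.2%), 666 higher (17.9%) and 685 lower (18.4%). For each list of genes below, the median log2 fold change and the share called in either direction stand beside those over all genes, -0.02 and 45.2% against Xcr1/Clec9a-gated and 0.05 and 36.2% against Cd209a-gated cells. At an unadjusted p under 0.05 there were 1941 (52%) and 1684 (45.1%). DESeq2 called 1416 and 1168 genes, of which 1412 and 1159 were shared. After thinning to 2000 UMIs, which evens out the depth, 521 and 487 of 972 testable genes were called, 476 and 439 of them among the calls above.

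The largest increases over Xcr1/Clec9a-gated cells included genes of the TNF receptor and ligand families. Tnfrsf4 (OX40) had 162, 333, 181 and 241 CPM and Tnfrsf9 (4-1BB) 172, 159, 123 and 290.2 CPM in mature dendritic cells, with 0 UMIs of either in the Xcr1/Clec9a-gated cells. That puts them at least 126-fold and 108-fold higher, with the floor at 3 UMIs over the gate, and Tnfrsf9 had an adjusted p of 1.52e-05 in edgeR and 0.0527 in DESeq2. Cd70, the ligand of Cd27 on T cells, had 138, 105, 87.3 and 104 CPM and was at least 54.5-fold higher, as was Ankrd33b at least 91.2-fold. Nudt17, a Nudix-type hydrolase, had 304 UMIs against 1, a ratio of 291, 95% interval 51.8 to 11525, and Gm13546, a gene without an assigned role, 444 against 2, a ratio of 212, 95% interval 58.5 to 1759. Cacnb3 averaged 511 ± 96.1 CPM (SD over 4 libraries) against 0 to 5.34 CPM in the gated cells (log2 fold change 7.18, standard error 0.34, adjusted p = 3.50e-07). Socs2 was separated as widely, with 0 to 7.58 CPM in the gate (log2 fold change 7.16, standard error 0.32, adjusted p = 2.85e-08), followed by Ramp3 (6.07) and Cd200 (5.42). Every library of mature dendritic cells lay above every library of the gated cells for these genes.

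The largest decreases included genes of a list for cDC1. Itgae, the integrin subunit CD103, had 2 UMIs in mature dendritic cells against 453 in Xcr1/Clec9a-gated cells, a ratio of 0.00422, 95% interval 0.000510 to 0.0153. Naaa, a lysosomal amidase, had 4.77, 4.69, 22.6 and 10.4 CPM against 745, 572, 387 and 406 CPM (log2 fold change -5.55, standard error 0.39, adjusted p = 3.92e-07). Wdfy4, which is needed for cross-presentation by cDC1, had 4.77, 21.1, 9.70 and 4.44 against 458, 321, 331 and 259.7 CPM (log2 fold change -4.99, standard error 0.35, adjusted p = 3.77e-07). Ppt1, a lysosomal thioesterase, had 33.4, 21.1, 25.9 and 35.5 against 683, 708, 717 and 576 CPM (log2 fold change -4.53, standard error 0.24, adjusted p = 5.19e-08). Mature and gated libraries did not overlap for these genes, nor for Qpct (-6.14), Plbd1 (-5.29), Plet1 (-5.28), Gpr171 (-4.30) or Rab7b (-4.08). Ly6d (-6.16, adjusted p = 0.0124) was uneven, with 69.0, 69.5, 0 and 667 CPM in the gated libraries, and it was not called by DESeq2 (adjusted p = 0.0897) or without shSELP 2 (-3.85, adjusted p = 0.117). Of the 10 tested genes of that list, 8 were lower and 2 higher, Batf3 and Irf8, with a median log2 fold change of -4.30 beside -0.02 over all genes (100% called beside 45.2%). The list includes genes that accompany Xcr1 and Clec9a, by which the compared cells were selected.

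The comparison with Cd209a-gated cells gave its own list of largest increases. Cacnb3 had 0 UMIs in the gated cells and was at least 86.7-fold higher in mature dendritic cells. Bcl2l14, a Bcl-2 family gene, was at least 48.9-fold higher, Gm13546 43.6-fold, Tnfrsf4 38.8-fold, Tnfrsf9 33.2-fold, Mreg 22.6-fold, Gm47662 17.9-fold and Tm4sf5 17.7-fold, all from 0 UMIs in the gate. Tnfrsf4 and Tnfrsf9 passed in edgeR but not in DESeq2, where their adjusted p was 0.127 and 0.146. Serpinb6b, a serpin, had 1354, 1578, 1415 and 1455 against 0, 0, 0 and 46.1 CPM (log2 fold change 6.61, standard error 0.58, adjusted p = 4.92e-06). Cd1d1, which presents lipids to NKT cells, had 351 UMIs against 1, a ratio of 103, 95% interval 18.4 to 4093. Among the decreases, Clec10a, a galactose-binding lectin of cDC2, had 1 UMI against 112 (ratio 0.00263, 95% interval 6.60e-05 to 0.0149), and Cd7 2 against 134 (ratio 0.00439, 95% interval 0.000527 to 0.0162). Ccl9, a myeloid chemokine, had 4.77, 2.34, 16.2 and 7.40 against 435, 493, 502 and 580.0 CPM (log2 fold change -6.06, standard error 0.67, adjusted p = 2.23e-05). Further decreases were those of Ifitm6 (-6.26), Gpr141 (-5.56), Wfdc17 (-5.12), Anxa1 (-4.93), Emilin2 (-4.83) and Ccr2 (-4.56). A list for cDC2 had 0 genes higher and 6 lower of 10 tested (median -1.59 beside 0.05 over all genes, and 60% called beside 36.2%), and against Xcr1/Clec9a-gated cells 1 and 2 (median -0.53 beside -0.02, and 30% called beside 45.2%), while the cDC1 list had 2 higher and 3 lower against Cd209a-gated cells (median -1.11 beside 0.05, and 50% called beside 36.2%).

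Markers of mature dendritic cells that the rule did not use were higher than in either gate. Among 18 tested, 16 were higher than in Xcr1/Clec9a-gated cells and 15 than in Cd209a-gated cells, with 0 lower in either comparison and medians 3.61 and 3.60 beside -0.02 and 0.05, and 88.9% and 83.3% called beside 45.2% and 36.2%. The list was written from what is known of these cells, several of its genes accompany Fscn1 and Ccr7, and its counts carry no test of their own. Ccl22 was higher than in both (log2 fold changes 3.19 and 4.08, adjusted p = 7.95e-04 and 6.35e-04). Zbtb46 was higher than in Xcr1/Clec9a-gated cells (7.58 to 21.4 CPM, log2 fold change 2.42, standard error 0.47, adjusted p = 0.00119) but did not pass against Cd209a-gated cells (0 to 72.5 CPM, log2 fold change 1.02, standard error 0.51, adjusted p = 0.139). Tmem123, a membrane mucin, had 1421, 1165, 1273 and 1423 CPM (log2 fold change 4.01, standard error 0.22, adjusted p = 7.68e-08, and 3.49 against Cd209a-gated cells). Cd83, a maturation marker that stabilizes MHC class II at the surface, had 958, 724, 1018 and 727 CPM and was higher by 0.68 (adjusted p = 0.0294) than in Xcr1/Clec9a-gated cells and by 0.49 (adjusted p = 0.133, not called) than in Cd209a-gated cells. Not called in the first comparison were Ccl17, a Ccr4 ligand like Ccl22, and Il12b, the p40 subunit of interleukin-12, both concentrated in few cells.

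Chemokine and chemokine receptor genes were called in both directions. Of 17 tested 4 were higher and 3 lower than in Xcr1/Clec9a-gated cells, and 3 higher and 6 lower than in Cd209a-gated cells, with medians -0.23 and -0.65 beside -0.02 and 0.05, and 41.2% and 52.9% called beside 45.2% and 36.2%. Ccl5 had 391, 398, 200.3 and 948 CPM in Xcr1/Clec9a-gated and 1056, 1205, 682 and 5213 CPM in Cd209a-gated cells, below each library of mature dendritic cells (log2 fold change 4.56, standard error 0.38, adjusted p = 1.20e-06 and 2.68, adjusted p = 8.90e-05). Cxcl16, the membrane-bound ligand of Cxcr6 on T cells, was higher than in both gates (0.74 and 1.27) at 906, 975, 1076 and 909 CPM. Cxcl10, an interferon-induced ligand of Cxcr3, stood between the gates with 415, 703, 608 and 419 CPM, higher than in Xcr1/Clec9a-gated cells (1.05, adjusted p = 0.0133) and lower than in Cd209a-gated cells (-2.73, adjusted p = 2.56e-05). Cxcl9, another Cxcr3 ligand, had 472, 1552, 1050.3 and 648 CPM and passed in neither comparison. Receptors of inflammatory chemokines were low, Ccr2 with 0, 4.69, 32.3 and 0 CPM and Ccr1 with 4.77, 11.7, 16.2 and 11.8 CPM, and both were lower than in either gate (-2.69 and -4.56 for Ccr2, -2.06 and -3.82 for Ccr1). Ccl19, a ligand of Ccr7 itself, had 0 UMIs.

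Costimulatory molecules were called higher more often than lower. The list had 8 genes higher and 1 lower of 13 against Xcr1/Clec9a-gated cells (median 1.69 beside -0.02, and 69.2% called beside 45.2%) and 6 and 1 against Cd209a-gated cells (median 0.85 beside 0.05, and 53.8% called beside 36.2%). Cd80, which binds Cd28 and Ctla4, had 209.7, 284, 155 and 258 CPM against 46.6 to 66.8 and 60.0 to 109 CPM (log2 fold change 1.86, standard error 0.19, adjusted p = 7.90e-06, and 1.35 with adjusted p = 3.52e-04). Cd86, the other ligand of that pair, had 558, 529.7, 482 and 420.5 CPM and was not called (0.50 and -0.46). Il15ra, which presents interleukin-15 to T and NK cells, had 234, 213, 249 and 332 CPM and rose over both gates (5.29 and 3.75), and Il15 did so over Xcr1/Clec9a-gated cells alone (3.54, and 0.78 not called), a difference between comparisons that was not tested. Cd40, the receptor for T cell help, was higher than in Xcr1/Clec9a-gated cells (276, 223, 294 and 187 CPM, log2 fold change 1.49, standard error 0.39, adjusted p = 0.00789) and close to Cd209a-gated cells (-0.21, adjusted p = 0.719). Il2ra, the high-affinity interleukin-2 receptor chain, had 133, 108, 77.6 and 94.8 CPM (3.09 and 4.48, both called). Cd48, a ligand of Cd244, was the gene that was lower in both comparisons (-1.50 and -1.16), and Il12a and Tnfsf18 had 0 UMIs.

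Genes that restrain T cells or cytokine signals were called in both directions. Against Xcr1/Clec9a-gated cells 8 of 15 were higher and 5 lower (median 0.92 beside -0.02, and 86.7% called beside 45.2%), and against Cd209a-gated cells 6 and 4 (median 1.02 beside 0.05, and 66.7% called beside 36.2%). Cd274, which encodes PD-L1, had 434, 607, 514 and 530.0 CPM against 152 to 191 and 127 to 235 CPM (log2 fold change 1.56, standard error 0.19, adjusted p = 2.54e-05, and 1.41 with adjusted p = 1.63e-04). Pdcd1lg2 (PD-L2) had 105, 197, 116 and 154 CPM and was higher by 0.92 and 3.72. Cd200, whose receptor inhibits myeloid cells, had 396, 612, 608 and 679.5 CPM (log2 fold change 4.49, standard error 0.57, adjusted p = 6.35e-05 against Cd209a-gated cells). Il4i1 exceeded the gates by 4.91 and 3.46, and Ebi3, a subunit of interleukin-27 and interleukin-35, by 1.21 and 1.78. Lower than in both gates were Havcr2 (TIM-3; 9.53, 9.38, 25.9 and 13.3 CPM, -3.84 and -2.39), Tgfb1 (-1.10 and -1.57), Lgals9 (-1.08 and -1.95) and Socs3 (-1.27 and -1.98). Ido1 and Ido2, which degrade tryptophan, and Aldh1a2, which makes retinoic acid, were near the limit of detection with 4.77, 11.7, 0 and 4.44 CPM of Ido1, 0, 0, 0 and 2.96 CPM of Ido2 and 19.1, 9.38, 0 and 17.8 CPM of Aldh1a2.

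Antigen presentation genes differed in direction by class. In MHC class II, 8 of 12 genes were lower than in Xcr1/Clec9a-gated cells and 6 lower than in Cd209a-gated cells, with 0 higher in both (medians -1.35 and -0.65 beside -0.02 and 0.05, and 66.7% and 50% called beside 45.2% and 36.2%). H2-Ab1 had 2822, 3111, 2837 and 2281 CPM against 10868 to 13511 and 4484 to 9114 CPM, so every library of mature dendritic cells lay below the gates (log2 fold change -2.13, standard error 0.18, adjusted p = 1.57e-06, and -1.24 with adjusted p = 1.76e-04). H2-DMb1, part of the peptide exchanger of class II, had 33.4, 138, 149 and 111 CPM (-3.20 and -2.60, both called). Cd74, the invariant chain and the most abundant gene of the list, had 6735, 7025, 6777 and 6949 CPM against 14883 to 18059.6 and 9891 to 16159.5 CPM (-1.29 and -0.99). In MHC class I, 10 and 9 of 17 genes were higher and 1 lower in each, the chaperone Calr (medians 0.67 and 1.01 beside -0.02 and 0.05, and 64.7% and 58.8% called beside 45.2% and 36.2%). H2-K1 had 4328, 4271, 4595 and 4986 CPM against 2310.1 to 3113 and 1815 to 2722 CPM (log2 fold change 0.78, standard error 0.13, adjusted p = 2.98e-04, and 1.08 with adjusted p = 3.67e-05). H2-Q6 and H2-Q7, a pair of near-identical genes, were both higher (1.86 and 2.63, 1.18 and 2.31). Psme2, an activator of the immunoproteasome, had 753, 947, 585 and 949 CPM (1.51 and 1.75), and Nlrc5, the class I transactivator, was higher than in Xcr1/Clec9a-gated cells (1.72).

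NF-kB pathway genes were nearly all higher than in Xcr1/Clec9a-gated cells. Of 18 tested, 16 were higher and 1 lower there (Tnfaip2, median of the list 1.19 beside -0.02, and 94.4% called beside 45.2%), and 9 were higher and 1 lower against Cd209a-gated cells (Bcl3, median 0.66 beside 0.05, and 55.6% called beside 36.2%). Relb, the transcription factor of the noncanonical branch, had 467, 619, 582 and 610.0 CPM against 52.9 to 130.4 and 46.6 to 117 CPM (log2 fold change 2.56, standard error 0.21, adjusted p = 1.24e-06, and 2.63 with adjusted p = 6.79e-06). Its partner Nfkb2 had 229, 211, 219.8 and 232 CPM (2.01 and 1.69), and Map3k14, the kinase NIK that starts this branch, 162, 159, 93.7 and 151 CPM (2.21 and 0.79), all called. Birc2, a ubiquitin ligase of the pathway, had 624, 656, 433 and 625 CPM (log2 fold change 3.47, standard error 0.22, adjusted p = 2.74e-07, and 2.50), and Traf1, an adaptor of TNF receptors, 1139, 1268, 959.8 and 1122 CPM (2.08, and adjusted p = 0.00147 against Cd209a-gated cells). Of the canonical branch, Nfkb1, Rela and Nfkbia were called against Xcr1/Clec9a-gated cells and not against Cd209a-gated cells, with 1.16 and -0.06 for Nfkb1, 1.29 and 0.20 for Rela and 0.81 and -0.18 for the inhibitor Nfkbia, the most abundant of the list at 2121, 2389, 2698 and 1848 CPM. Rel, which encodes c-Rel, passed in both (1.20 and 0.95).

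Several of these genes are known targets of NF-kB themselves, and RefSeq promoters (GRCm38.p6, 250 bases before to 50 after the start) were searched on both strands for a form of its motif, 3 G, any 2 bases, 3 T and 2 C, the only motif searched. Promoters were at hand for 17 of the 20 NF-kB genes, and 6 of these genes held the motif (35.3%), against 512 of all 27025 genes with a promoter (1.89%). Of 14 mature dendritic cell markers with a promoter 0 held it, and so did 0 of 16 among the 20 leading genes, while the list with the next highest share was that for cDC2 (2 of 11, 18.2%). The windows of the 6 genes, which were picked for display after the counts were seen, are shown 5' to 3' on the strand of the gene, with the motif or its reverse complement in capitals.
Nfkb2, chr19:46304716-46304745, plus strand: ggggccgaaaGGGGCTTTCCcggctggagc
Nfkb2, chr19:46305695-46305724, plus strand: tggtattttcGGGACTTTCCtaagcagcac
Rel, chr11:23771041-23771070, minus strand: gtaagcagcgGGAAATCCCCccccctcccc
Nfkbia, chr12:55492657-55492686, minus strand: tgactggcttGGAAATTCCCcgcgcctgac
Traf2, chr2:25546891-25546919, minus strand: gcggcagcggGGGTGTTTCCcggcgagcg
Traf3, chr12:111166350-111166379, plus strand: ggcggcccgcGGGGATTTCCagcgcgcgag
Tnfaip3, chr10:19015403-19015432, minus strand: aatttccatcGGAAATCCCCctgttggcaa
Nfkb2 had a match in 2 promoters, Rel, Nfkbia and Tnfaip3 had it on the strand opposite to the gene, and a match says nothing about binding in these cells.

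Transcription factors and growth factor receptors of dendritic cells did not follow a single direction. The list had 7 genes higher and 5 lower of 16 against Xcr1/Clec9a-gated cells, and 6 and 4 against Cd209a-gated cells (medians 0.67 and 0.33 beside -0.02 and 0.05, and 75% and 62.5% called beside 45.2% and 36.2%). Irf8, which is needed for cDC1 development, had 1826, 1936, 1348 and 1452 CPM against 766 to 1133 and 329.8 to 613 CPM (log2 fold change 0.73, standard error 0.21, adjusted p = 0.0126, and 1.85 with adjusted p = 4.57e-05). Batf3, its cofactor in cDC1, had 124, 237, 233 and 225 CPM (1.36 and 2.86, both called), so 2 regulators of the cDC1 lineage were higher than in the gate of that lineage. Id2 (0.69 and 1.12), Nfil3 (1.12 and 1.10) and Nr4a3, a nuclear receptor linked to dendritic cell migration (1.25 and 1.09), also passed in both. Irf4, a factor of cDC2, had 28.6, 42.2, 16.2 and 26.6 CPM and was too low to test in these comparisons. Flt3 had 76.3, 159, 90.5 and 149.5 CPM and passed against Cd209a-gated cells alone (1.06, adjusted p = 0.0469, and 0.22 against the other gate), whereas Kit (-1.91 and -1.21) and the GM-CSF receptor chain Csf2ra (-1.07 and -1.05) were lower than in both.

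Genes of the actin cytoskeleton and of migration were abundant. Together 22 such genes, Fscn1 included, made up 108888, 111809, 95806 and 104032 CPM of the mature dendritic cells against 38416, 38015, 34153 and 38371 CPM of other cells, with Tmsb4x, which binds actin monomers, the most abundant. Of 19 tested, 9 were higher and 4 lower than in Xcr1/Clec9a-gated cells, and 10 and 6 against Cd209a-gated cells (medians 0.24 and 0.42 beside -0.02 and 0.05, and 68.4% and 84.2% called beside 45.2% and 36.2%). Marcks, which links actin to the membrane, had 1864, 1983, 2343 and 1985 CPM against 205 to 377 and 250.4 to 382 CPM (log2 fold change 2.82, standard error 0.20, adjusted p = 4.16e-07, and 2.63 with adjusted p = 2.37e-06). Marcksl1 (3.01 and 1.64), the Cdc42 effector Cdc42ep3 (4.83 and 2.97) and the motor Myo1g (2.34 and 1.81) were higher in both. Gpr183, an oxysterol receptor that positions dendritic cells in lymphoid tissue, had 229, 263, 249 and 149.5 CPM (2.26 and 1.38). Itgb7, a chain of gut-homing integrins, fell below both gates (-2.73 and -3.59), as did Tmsb10, Coro1a and Rac2. Vim, or vimentin, had 844, 1193, 957 and 1318 CPM, close to Xcr1/Clec9a-gated cells (-0.16, not called) and below Cd209a-gated cells (-1.88).

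Among genes of antigen uptake that were called, Ly75 alone was higher. Ly75 was higher than in both gates (18.6 to 30.3 and 0 to 19.8 CPM, log2 fold change 2.68, standard error 0.30, adjusted p = 1.44e-05, and 4.64 with adjusted p = 2.43e-05). Of 11 tested genes 5 and 3 were lower (medians -0.49 and -0.72 beside -0.02 and 0.05, and 54.5% and 36.4% called beside 45.2% and 36.2%), among them the lectin receptors Clec12a (-2.75 against Xcr1/Clec9a-gated cells) and Clec4n (-3.38 and -4.27) and the scavenger receptor Cd36 (-4.31 against Xcr1/Clec9a-gated cells). Of 12 survival genes 8 and 4 were higher, with 0 lower in either comparison (medians 0.92 and 0.66 beside -0.02 and 0.05, and 66.7% and 33.3% called beside 45.2% and 36.2%). Bcl2l1, which encodes the anti-apoptotic Bcl-xL, had 100.1, 89.1, 145 and 62.2 CPM (0.97 and 1.84), Bcl2a1b 1535, 1549, 818 and 1195 CPM (1.24 and 1.86), a member of a family of near-identical genes, and the death receptor Fas 71.5, 152, 109.9 and 118 CPM (3.97 and 0.47, the latter not called). Cell cycle genes were lower than in Xcr1/Clec9a-gated cells for 4 of 6 tested (median -1.50 beside -0.02, and 66.7% called beside 45.2%), with -2.73 for Stmn1 and -1.85 for Mki67. Against Cd209a-gated cells edgeR called 0 of 6 either way (median 0.47 beside 0.05, and 0% called beside 36.2%). There 0 had an unadjusted p under 0.05, beside 45.1% over all genes. In the libraries of that gate 3 UMIs stand for 19.8 to 46.6 CPM, so low genes were poorly resolved.

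Interferon-stimulated genes were called in larger number against Cd209a-gated than against Xcr1/Clec9a-gated cells, a difference between comparisons that was not tested. They had 1 gene higher and 13 lower of 18 against the former (median -1.63 beside 0.05, and 77.8% called beside 36.2%), and 4 higher and 2 lower against the latter (median -0.01 beside -0.02, and 33.3% called beside 45.2%). Isg15, a ubiquitin-like modifier and the most abundant of the list, had 1630.2, 2836, 2427 and 2016 CPM against 292 to 931 and 667 to 1977 CPM (log2 fold change 1.76, standard error 0.31, adjusted p = 5.24e-04, and 0.70 with adjusted p = 0.0906). Ifitm3, which blocks virus entry, had 1182, 1319.7, 1445 and 922 CPM and was lower than in both (-1.13 and -2.65), as was Irf7, which amplifies interferon production (-1.40 and -1.93). Genes that answer to interferon-gamma had 7 higher and 1 lower of 16 against Xcr1/Clec9a-gated cells, and 2 and 6 against Cd209a-gated cells (medians 0.32 and -0.59 beside -0.02 and 0.05, and 50% and 50% called beside 45.2% and 36.2%). Irf1, a transcription factor of this response, was higher than in both gates with 543, 558, 494 and 490.0 CPM (2.15 and 0.71), and Serpina3g, a serpin, lower than in both (-1.41 and -2.78). Immediate early and heat shock genes were lower for 4 and 5 of 18 and higher for 1 (Jun) and 0, with medians -0.30 and -0.43 beside -0.02 and 0.05, and 27.8% and 27.8% called beside 45.2% and 36.2%. In the selectin axis, Selplg was higher than in both gates (log2 fold change 1.45, standard error 0.15, adjusted p = 1.05e-05, and 0.91 with adjusted p = 7.54e-04). The sialyltransferase St3gal4 was higher (0.71) and Cd24a lower (-2.13) than in Xcr1/Clec9a-gated cells, and Cd44 was lower than in Cd209a-gated cells (-1.88).

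Between shSELP and shNC tumors the summed counts of the mature dendritic cells of the mix differed for 1 gene. Apoe, the lipid carrier apolipoprotein E (chromosome 7, 19696109 to 19699188, minus strand), had 458, 481, 2259 and 1896 CPM, so that both shSELP libraries were well above both shNC libraries, with 469 ± 16.2 (SD) against 2078 ± 256 CPM. On the log2 scale it rose by 2.11 with a standard error of 0.19 (edgeR, adjusted p = 0.0248), and it was the 1 gene called of 4305 tested (0.0232%), also by DESeq2. At an unadjusted p under 0.05 there were 211 genes in edgeR (4.9%) and 63 in DESeq2, and the libraries did not overlap between the groups for 1477 genes (34.3%). With 1 library left out the count was 46 (without shNC 1), 6 (without shNC 2), 31 (without shSELP 1) and 80 (without shSELP 2), where the lone library of a group is assumed to vary like those of the other group, and Apoe was called each time. Without a filter on low counts 100 of 12994 genes were called.

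The Apoe difference lay in a small number of cells with macrophage genes. Of 96, 205, 699 and 1281 Apoe UMIs, 46, 172, 171 and 684 came from the cell with the most. The complement genes C1qa, C1qb and C1qc, which macrophages and microglia make, were likewise concentrated: 1, 2, 6 and 6 mature dendritic cells with at least 5 UMIs of the C1q genes held 443 of 458, 149 of 186, 1383 of 1403 and 1052 of 1094 C1q UMIs. When these 15 cells were left out, an alternative chosen after seeing the data, Apoe had 264, 81.7, 162 and 166 CPM, shNC 1 became the highest library and the log2 fold change was 0.03 (adjusted p = 1.0). No gene was then called by edgeR among 3859, while 203 had an unadjusted p under 0.05. Apoe was also not called with the 2 Scrublet calls left out (2.85, adjusted p = 0.982), in cells thinned to 2000 UMIs (2.11, 0.512), with at least 3 UMIs of Fscn1 required (1.56, 0.161) or with 1 UMI of Fscn1 sufficing (1.27, 1.0), where 1 other gene, Ly6d, was called. A UMI of Apoe was found in 57.5% of the mature dendritic cells and in 54.2% of T cells (30.1% and 23.7% thinned), and one of C1qa, which T cells should lack, in 24.0% and 22.6% (12.3% and 9.74% thinned). Whether the C1q-rich cells were doublets, cells that had taken up macrophage RNA or a cell state was not tested.

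**Figure D3:**
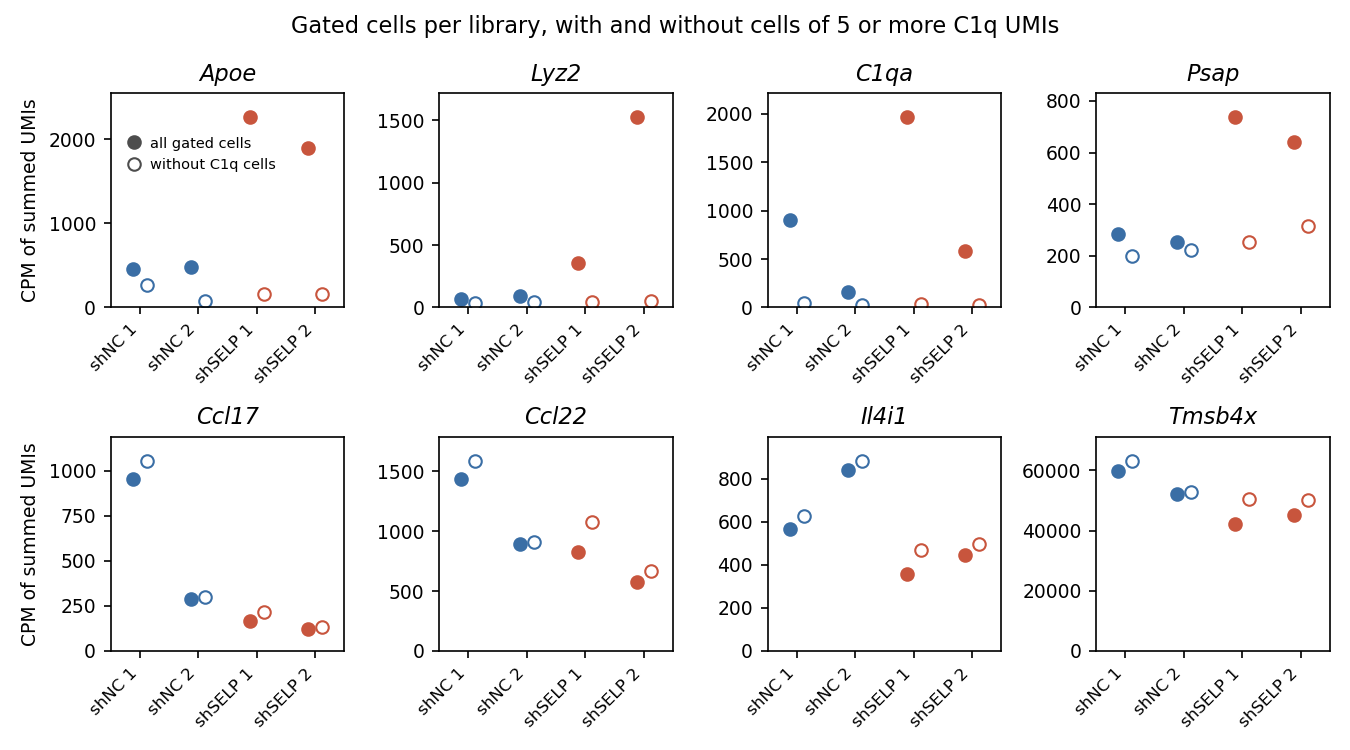
CPM of 8 genes in the mature dendritic cells of each library of the mix, from all gated cells (filled) and without the cells that had at least 5 UMIs of C1qa, C1qb and C1qc together (open). In the shSELP libraries Apoe was at 2259 and 1896 CPM with these cells and at 162 and 166 CPM without them.

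Since few genes were called, those of at least 100 CPM with the lowest unadjusted p are given here, none of them called by edgeR in the main comparison. On the higher side, Lyz2, a lysozyme of macrophages, had 66.7, 91.4, 359 and 1522 CPM (log2 fold change 3.50), but 1 cell held 772 of the 1028 UMIs of shSELP 2 and 1 cell 72 of the 111 of shSELP 1. Psap, a lysosomal precursor protein, had 286, 253, 737 and 643 CPM (1.32), and Tgfbi, a secreted matrix protein, 33.4, 58.6, 171 and 172 CPM (1.78). Without the C1q-rich cells these became 37.0, 42.1, 46.8 and 51.2 CPM for Lyz2, 201, 223, 255 and 318 CPM for Psap and 31.7, 0, 21.3 and 3.53 CPM for Tgfbi. Ier3, an immediate early gene, had 76.3, 84.4, 239 and 181 CPM (1.33). On the lower side, Ccl17 (chromosome 8, 94810453 to 94812036, plus strand) had 953, 288, 165 and 121 CPM, highest in shNC 1 and lower in both shSELP than in both shNC libraries (-2.17, unadjusted p = 0.00435, adjusted p = 0.981). Of the 200 Ccl17 UMIs of shNC 1, 82 came from 1 cell, and without the C1q-rich cells the order was the same with 1056, 299.6, 217 and 136 CPM. Tnip3, an inhibitor of NF-kB signaling, had 419, 291, 145 and 188 CPM (-1.11), Hist1h1c, a linker histone, 167, 185, 109.9 and 79.9 CPM (-0.96) and Tmsb4x 59647, 52109.7, 42261 and 45273 CPM (-0.39), which became 63202, 52729, 50664 and 50257 CPM without the C1q-rich cells. For Spp1, or osteopontin, with 1015, 32.8, 0 and 5.92 CPM (-6.97), 1 cell held 210 of the 213 UMIs of shNC 1. Ccl17, Il12b, Lyz2, Spp1 and Tmsb4x were called besides Apoe when shNC 2 was left out, and Ccl17, Lyz2, Psap and Spp1 were among the 15 genes called with a block for the library number. Of the 9 genes with levels given here, Psap and Lyz2 were also called without shNC 1, Tgfbi, Psap, Lyz2, Spp1, Ccl17 and Tmsb4x without shSELP 1, and these and Ier3 without shSELP 2. With no filter on low counts all 9 but Hist1h1c were called.

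Genes of the mature program itself were not called between the groups. Of the 18 markers tested other than Fscn1 and Ccr7, whose levels are bound by the rule, 0 were called by edgeR and by DESeq2. In edgeR 5 had an unadjusted p under 0.05, beside 211 of 4305 (4.9%) over all genes, and the median log2 fold change was -0.06 beside 0.01. Of the 18, 8 were higher on average in shSELP libraries, and 10 were without the C1q-rich cells. Il4i1 was lower in both shSELP libraries (-0.84, unadjusted p = 0.00836), as were Ccl22 (-0.77, 0.0364), Tbc1d4 (-0.61, 0.0278) and the adaptor Samsn1 (-0.47, 0.0375), none of which passed the adjustment. Fscn1 and Ccr7 differed by -0.01 and -0.19, and Ccl5 was at 8496 ± 376 against 10539 ± 486 CPM (0.27, unadjusted p = 0.0522). Il12b had 1011, 35.2, 313 and 161 CPM without separating the groups, and 123 of the 212 UMIs of shNC 1 were in 1 cell. By list, the median was -0.03 for 12 chemokine genes, -0.31 for 15 of costimulation, -0.04 for 14 of inhibition, -0.18 for 11 of MHC class II, 0.09 for 18 of MHC class I and -0.13 for 18 of NF-kB. It was 0.13 for 15 transcription factors and receptors, -0.07 for 20 cytoskeletal, 0.49 for 9 uptake, 0.15 for 19 interferon-stimulated, -0.09 for 15 interferon-gamma, -0.04 for 12 survival and -0.52 for 6 cell cycle genes. For cDC1 and cDC2 genes it was -0.05 (4 tested) and 0.42 (7 tested). In each of these lists edgeR and DESeq2 called 0 genes. At an unadjusted p under 0.05 in edgeR there were 5 of 12 chemokine genes, beside 4.9% over all genes. Of these 12, 6 were higher on average in shSELP libraries. Each of the other lists had 0 to 2 genes at that p, among them 2 of 7 for cDC2. Without the C1q-rich cells 2 of 7 chemokine genes had such a p, beside 203 of 3859 over all genes. Without the C1q-rich cells the medians were 0.12 for the 18 markers, -0.10 for chemokines, -0.31 for costimulation, -0.24 for MHC class II and -0.34 for uptake. Those for cDC1 and cDC2 genes were then -0.32 (3 tested) and -0.21 (4 tested), so the cDC2 median turned.

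Of the lists of functions, that of immediate early and heat shock genes had the largest median. All 18 of 18 were higher on average in shSELP libraries, with a median of 0.73 beside 0.01 over all genes. EdgeR called 0 of them, beside 1 of 4305 genes, and 10 had an unadjusted p under 0.05, beside 211 of 4305 (4.9%). Egr1 had 33.4, 60.9, 546 and 63.7 CPM, Hspa1a, an inducible chaperone, 28.6, 60.9, 336 and 108 CPM and Junb 977, 1132, 2000.4 and 1347 CPM. Library shSELP 1 was the highest for each of these, and 159 of its 169 Egr1 UMIs were in the 6 C1q-rich cells. Without the C1q-rich cells 12 of 18 were higher, with a median of 0.37 beside 0.01 over all genes and 6 at an unadjusted p under 0.05, beside 203 of 3859. Such genes also respond to tissue dissociation, and the part of that in the difference was not tested.

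In the mix, markers of each other cell type summed to less in mature dendritic cells than in all other cells of the same library. The 14 macrophage and monocyte markers were all detected and summed to 3279.6, 1322, 8364 and 5648 CPM, led by Apoe, against 28832, 26721, 32757 and 40614 CPM in other cells. Of 13 tested, all 13 were higher on average in shSELP libraries (median 1.25 beside 0.01 over all genes) and 1 was called, 7.69% beside 0.0232%, and without the C1q-rich cells 2 of 4 were (median -0.07 beside 0.01). The 9 microglial markers summed to 386, 84.4, 1735 and 314 CPM, led by Sparc, with a median of 2.37 over 5 tested genes, and 0 could be tested without the C1q-rich cells. The groups did not overlap for macrophage markers and did for microglial markers. With a block for the library number, Apoe, C1qa, C1qb, Csf1r, Cx3cr1, Lyz2 and Sparc were among the 15 genes called. The C1q-rich cells were picked by C1qa, C1qb and C1qc, which are among the 14 macrophage and monocyte markers. Leaving them out therefore lowers the C1q genes by construction and is no test. The part of these genes in the result was not tested. T cell markers summed to 85.8, 65.6, 45.2 and 19.2 CPM, led by Cd8a, with Cd3e, Cd3d, Cd3g (by the rule), Cd8b1, Cd28 and Foxp3 at 0, and NK cell markers to 81.0, 77.4, 701 and 53.3 CPM, with Ncr1, Klrb1c and Eomes at 0. In shSELP 1, where the NK sum was highest, 1 cell held 132 of the 135 Gzmb UMIs. B and plasma cell markers summed to 47.7, 408, 84.0 and 56.3 CPM, led by Igkc, with Pax5 at 0, and in shNC 2 77 of 83 Igkc UMIs lay in 3 cells. Neutrophil markers reached 100.1, 77.4, 126 and 75.5 CPM, led by Il1r2, with Retnlg, Mmp9, Cxcr2 and G0s2 at 0, and plasmacytoid dendritic cell markers 744, 891, 1105 and 826 CPM, led by Bst2, with Klk1 at 0. Tumor markers gave 28.6, 58.6, 29.1 and 37.0 CPM, led by Prph, with Sox2 (by the rule), Ncan and Dcx at 0, and endothelial and mural markers 19.1, 113, 48.5 and 56.3 CPM, led by Pecam1, with Cldn5, Cdh5 and Kcnj8 at 0.

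Whether the mature dendritic cells responded to Selp knockdown in the tumor otherwise than the dendritic cells of the other gates was tested with an interaction term over 4554 genes. At an adjusted p under 0.05 edgeR called 0 genes (0%) and DESeq2 1, the chemokine Ccl3, while 233 (5.12%) and 99 had an unadjusted p under 0.05. Of the Ccl3 UMIs of the mature dendritic cells, 15 of 16, 39 of 40, 259 of 293 and 106 of 111 were in 3 cells of each library. Without shSELP 1 the edgeR count was 24, without shSELP 2 it was 9, without either shNC library it was 0, and without a filter on low counts it was 37. Median interaction terms were -1.98 for 13 cell cycle genes (1 positive and 0 at an unadjusted p under 0.05), -0.84 for costimulation, -0.71 for MHC class II and -0.44 for NF-kB, beside -0.04 over all genes, with, for the last 3, 3 of 15, 6 of 12 and 5 of 19 genes at an unadjusted p under 0.05. The markers other than Fscn1 and Ccr7 had -0.40 (3 of 18 at that p), interferon-stimulated genes -0.36, survival genes -0.28, interferon-gamma genes -0.15, MHC class I -0.14, cDC2 genes -0.09, transcription factors and receptors 0.00, cytoskeletal genes 0.02 and inhibition 0.16. Above these were cDC1 genes with 0.20, immediate early and heat shock genes with 0.40 (12 of 18 positive) and uptake with 0.57 (9 of 14). A negative term means that the shSELP to shNC ratio was lower in mature dendritic cells than in the other gates. Without the C1q-rich cells the medians for cell cycle, costimulation, MHC class II and NF-kB were -1.50, -0.72, -0.70 and -0.26, and 0 genes were called by edgeR, with 175 at an unadjusted p under 0.05. The median for chemokines was 0.56 with these cells and -0.23 without them, that for the markers -0.40 and -0.16, that for uptake 0.57 and 0.31, that for immediate early and heat shock genes 0.40 and 0.05, and that for macrophage markers 1.39 and 0.23. For cDC1 genes it was 0.20 with and -0.23 without them, and for cDC2 genes -0.09 and -0.43.

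In the CD11b+ experiment the mature dendritic cells can be described but not tested, since each group is 1 library. Several label lines of the shSELP library name the control hairpin, so each direction here rests on its title, source and genotype being right. Fscn1 had 3009.9 CPM in shNC 1 and 2885 CPM in shSELP 2, Ccr7 5279 and 4089 CPM, and Cacnb3 773 and 636 CPM, which was 688 and 903 times the other CD11b+ cells. Zbtb46 had 0 UMIs in shNC 1 and 4 in shSELP 2, at the limit of this depth. The leading genes included Cacnb3, Cd200, Bcl2l14, Ramp3, Serpinb6b, Nudt17, Gm13546, Flt3, Tnfrsf4, Il4i1 and Tbc1d4, and also Gm47662, Spint2, Sema7a, Rras2, Stat4, Net1 and Adgrg6. Among 150 genes with at least 100 UMIs over both libraries 7 differed by at least 2-fold (4.67%), all of them lower in shSELP 2, and the median ratio was 0.873. S100a4, a calcium-binding protein of motile cells, had 131 UMIs in shNC 1 and 26 in shSELP 2, a ratio of 0.280, 95% interval 0.176 to 0.429, and its relative S100a6 79 and 22, a ratio of 0.393, 95% interval 0.233 to 0.637. Intervals of ratios cover counting error only. Cd83 had 87 and 24 UMIs (0.389, 95% interval 0.237 to 0.618), Pfn1, which binds actin, 88 and 28 (0.449, 95% interval 0.282 to 0.694), Nfkbia 304 and 104 (0.483, 95% interval 0.383 to 0.605) and the histone gene H2afz 176 and 61 (0.489, 95% interval 0.359 to 0.658). Lyz2 had 124 and 1 UMIs (0.0114, 95% interval 0.000286 to 0.0646), with 118 of the former in 1 cell. The highest ratios were those of the chaperone Hsp90ab1 (1.76, 95% interval 1.301 to 2.39), Gm42418 (1.60, 95% interval 1.53 to 1.68), Hspa8 (1.46, 95% interval 1.08 to 1.98, but 0.835 in thinned cells), Tmem123 (1.44, 95% interval 1.08 to 1.91) and Serpinb6b (1.41, 95% interval 0.993 to 2.00).

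Chemokine genes in the CD11b+ experiment had ratios on both sides of 1, with 2 above and 5 below among the 7 of at least 20 UMIs. Ccl17 had 50 UMIs in shNC 1 and 2 in shSELP 2, a ratio of 0.0564, 95% interval 0.00665 to 0.215, with 22 of the 50 in 1 cell, and Ccl22 had 58 and 22, a ratio of 0.535, 95% interval 0.312 to 0.888. Cxcl10 had 8 and 22 UMIs, a ratio of 3.88, 95% interval 1.66 to 10.1, Cxcl2 32 and 5, a ratio of 0.221, 95% interval 0.0671 to 0.570, and Cxcl9 a ratio of 1.03, 95% interval 0.640 to 1.66. In the mix, where none of these was called in the main comparison, Ccl17 and Ccl22 were lower in both shSELP than in both shNC libraries, while the groups overlapped for S100a4, S100a6 and Cd83 (log2 fold changes -0.26, 0.14 and 0.02). The groups did not overlap for 34.3% of all genes tested in the mix. For Il4i1 the CD11b+ ratio was 0.592, 95% interval 0.284 to 1.16, for Ccl5 0.735, 95% interval 0.667 to 0.810 and for Apoe 0.941, 95% interval 0.562 to 1.55. Ccl5 went the other way in the mix, where both shSELP libraries lay above both shNC libraries. Over genes of at least 20 UMIs, the 15 mature dendritic cell markers other than Fscn1 and Ccr7 had a median ratio of 0.823, 4 above and 11 below 1, beside 0.941 over 718 genes in all. MHC class II genes had 1.09, MHC class I 0.934, NF-kB 0.942, cytoskeletal genes 0.922, interferon-gamma genes 1.07, interferon-stimulated genes 1.13, transcription factors and receptors 1.08 and immediate early and heat shock genes 0.954. Further below were survival genes with 0.619, costimulation with 0.681, chemokines with 0.735 and inhibition with 0.792, from 5, 5, 7 and 4 genes. Macrophage and monocyte markers summed to 3669.8 CPM in shNC 1 and 1772 CPM in shSELP 2, against 54914 and 51588 CPM in the other CD11b+ cells, and the 13 T cell markers on the table were at 0, Cd3e, Cd3d and Cd3g by the rule. NK cell markers summed to 96.6 and 45.4 CPM, above the 37.0 and 28.1 CPM of the other cells, with Klrd1 at 6 and 1 UMIs. Tumor markers summed to 16.1 and 22.7 CPM, 1 UMI in each library, which was above the other cells in shNC 1 and below them in shSELP 2.

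How much the mature dendritic cells of the mix varied among themselves was described gene by gene. The measure was the Fano factor, the variance over the mean of UMIs per cell after thinning to 2000 UMIs, and the lowest value over the 4 libraries was taken. Over 1012 genes with a mean of at least 0.2 UMIs in every library the median of these lowest values was 0.985, for which no value under counting error alone was computed. Ccl5 was the most variable with 24.2, followed by Cst3, an inhibitor of cathepsins, with 22.3, the nuclear RNA Malat1 with 20.01, Tmsb4x with 18.5 and Actb with 13.4. Next came Cd74 (12.7), H2-Ab1 (10.4), H2-Aa (10.2), Isg15 (10.0) and Ccl4 (9.35), while Fscn1 and Ccr7 had 2.33 and 4.83, bounded from below by the rule. The factor can rise with abundance, and the mean per thinned cell was 119.6, 108, 94.9 and 95.2 UMIs for Tmsb4x, 56.4, 66.8, 62.8 and 73.3 for Malat1 and 5.58, 6.58, 4.89 and 3.57 for H2-Ab1. A UMI of Ccl5 was present in 78.8%, 81.8%, 84.1% and 86.8% of thinned cells, and one of H2-Ab1 in 60.6%, 59.1%, 56.8% and 52.6%. Ccl4 was concentrated, with 496 of 558 UMIs of shSELP 1 in 3 cells.

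Some genes were found together in the same mature dendritic cells, in pairs chosen after their values were seen and described in 219 cells thinned to 2000 UMIs. Isg15 had a UMI in 77 of 80 cells with Cxcl9 (96.2%) and in 59.0% of those without it. By library the shares were 90%, 100%, 100% and 92.3% with Cxcl9 and 52.2%, 60%, 65.4% and 58% without, higher with Cxcl9 in each. Ccl17 was present in 25.6% of the 125 cells with Ccl22 and in 6.38% of those without, also higher with Ccl22 in each library (43.5%, 21.1%, 25% and 20% against 10%, 3.57%, 0% and 11.1%). Il4i1 and Ccl22 showed no such tie, with Ccl22 in 55.6% of cells with Il4i1 and 58.6% of those without. Cells of a library share their source, so these shares carry no p.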

How the data were processed

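The authors aligned reads to mm10 with Cell Ranger 1.3 and deposited raw counts of UMIs per gene and cell, whole numbers without normalization, in a table of 20300 genes and 9172 cells for the mix and of 14363 genes and 5724 cells for CD11b+ cells. Columns were assigned to libraries by their prefix. The cells, the gates and the gene lists were chosen with earlier results of these data known.

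Counts were summed per library and gate. Between groups, edgeR 4.0.16 compared 2 shNC with 2 shSELP libraries by its quasi-likelihood F test after filterByExpr and TMM scaling, with Benjamini-Hochberg adjustment at 0.05. Gates were compared with library as a block, and the interaction of group and gate was tested in the joint fit. Shares were compared with an exact permutation test. CD11b+ sums had no test and are given as ratios with exact 95% intervals. Named genes were the label's markers and gate genes, examples of each list, called genes with the largest changes at 100 CPM or more, for the groups also the 5 with the lowest unadjusted p in each direction, the 20 leading genes, the 10 most variable and the 5 largest CD11b+ ratios in each direction. Other named genes, most of them further genes of the lists, and the co-detected pairs were chosen after their values were seen. Some genes of the rule and of the lists were not analysed here.

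Scrublet, as built into scanpy 1.11.5, took a doublet rate of 0.05 per library. Alternatives were DESeq2 1.42.0, no filter on low counts, other Fscn1 thresholds, at most 10% mitochondrial counts, thinning to 2000 UMIs, Scrublet calls left out, no library block, a replicate block, each library left out, TMM factors for CD11b+ ratios and, added after seeing the data, C1q-rich cells left out. R 4.3.3, limma 3.58.1, Python 3.11.15, numpy 2.4.6, scipy 1.17.1, pandas 2.3.3, anndata 0.12.19 and matplotlib 3.10.9 were used. Gene positions are from GENCODE M21. With 209785 UMIs in the shallowest sum of mature dendritic cells of the mix, 3 UMIs stand for 14.3 CPM. In the shallowest sum of the other gates, the Cd209a-gated cells of shNC 1 with 64367 UMIs, they stand for 46.6 CPM. Clusters and the other cell classes were not analysed here.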

Additional observations from a re-analysis of the deposited data

How the results depend on the processing

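Between shSELP and shNC mature dendritic cells of the mix, 1 gene was called, and 0 were called with at least 3 UMIs of Fscn1 required (139 at an unadjusted p under 0.05 in edgeR), with Scrublet calls left out (190), with C1q-rich cells left out (203) or in thinned cells (86), where fewer genes could be tested. Without a filter on low counts 100 were called, and with 1 library left out 6 to 80. The counts against Xcr1/Clec9a-gated and Cd209a-gated cells were 521 and 487 in thinned cells, where 972 genes could be tested. They stayed within 1.5 times the values given under the other alternatives run for these comparisons, and were 1223 to 1777 and 947 to 1329 with 1 library left out. Those alternatives were DESeq2, at least 3 UMIs of Fscn1, no filter on low counts, no library block, and C1q-rich cells or 1 library left out. For the interaction, DESeq2 called 1 gene, no filter on low counts gave 37, and leaving out 1 library gave 0 to 24. The difference in shares ranged from -0.368 to 1.24 points with 1 library left out, and was negative (-0.368 and -0.307) without shNC 1 and without shSELP 2. With TMM factors 10 of 150 genes of the CD11b+ cells differed by at least 2-fold, all lower in shSELP 2, beside 7 without them. In thinned CD11b+ cells 3 of 43 genes differed by at least 2-fold, and the ratio of Hspa8 was 0.835. Apart from the thinned counts, the cause was not tested.

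With a replicate block 15 genes were called between the groups, and the difference in shares was 0.436 points, 0.497 and 0.375 within the numbers. The labels tie libraries of the same number by that number alone, and whether they were handled together was not tested. The differences between libraries 1 and 2 of the groups correlated with r = 0.112 over 4305 genes, with 2 pairs. Values under the alternatives were tallied for 20 genes against each gate, 10 between the groups and 10 CD11b+ ratios, not for the other genes named. Of these values 486 kept direction and side of the threshold, 31 for 8 genes passed it in an alternative only, 10 no longer passed it, 5 CD11b+ ratios lay outside their first interval and 1 turned. Depth limits the CD11b+ cells most, as 3 UMIs stand for 48.3 and 68.1 CPM there.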
